A study of Bos taurus with 16 samples.

Results

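Endometrium, the lining of the uterus, was compared between nominal day 30 and nominal day 10 after parturition in the same 4 fertile cows. Each cow gave 1 array at each day, so the comparison uses 8 arrays of the 16 in the series, and the other 8, from days 50 and 100, entered the fit. The day 30 biopsies were taken on days 29 to 30 and the day 10 biopsies on days 9 to 10. Per the labels, pieces of endometrium were taken from the uterine horns with biopsy forceps, and labelled total RNA was hybridised to a 1-colour bovine expression array. No treatment separates the groups, and breed, age and parity are not given in the sources used here.

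After calving the bovine uterus sheds its maternal tissue, clears bacteria and debris, shrinks, and is covered again by epithelium. Matrix metalloproteinases, secreted enzymes that cleave collagen and other matrix proteins, and phagocytes, which engulf dead cells and microbes, are known to take part in this involution. The comparison addresses how the transcripts of the tissue differ between an earlier and a later time of this involution.

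The log2 processed signal of each probe minus the 75th percentile of its array is called its level, so a level of 0 is the brightness of that percentile. The 8 arrays had median processed signals of 79.1 to 154 and 61.1% to 74.1% of probes well above background. Pairs of arrays of the same day had a Pearson r, across probes, of 0.927 to 0.963 for day 30 and 0.901 to 0.978 for day 10. All 13 stromal fibroblast markers and 17 of 19 tested epithelial markers were well above background on all 8 arrays. All 14 smooth muscle markers were too, so the biopsies also held RNA of muscle cells. Each cow had a slide and a scan of her own, and day 30 and day 10 arrays lay at slide positions 2 and 1 in every cow. Position and day therefore cannot be told apart.

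Array probes are 60 bases long, and 4 of those behind the leading differences are printed here because they are what the array measured. The MMP3 probe covers chr15:4733287-4734269 on the plus strand of build Btau_3.1, longer than its 60 bases. The MMP1 probe, 1 of 3 for that gene, covers chr15:4762221-4763283 on the plus strand, and its capitals, bases 37 to 60, mark codons of the first part of the zinc-binding motif of the collagenase, which runs on past the probe. The files give no position for the TRPA1 probe, nor for the probe of the expressed sequence tag EE234825, of which the first 30 bases are shown.
MMP3: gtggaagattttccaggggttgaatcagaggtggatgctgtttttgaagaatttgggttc
MMP1: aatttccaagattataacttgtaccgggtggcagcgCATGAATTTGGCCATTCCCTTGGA
TRPA1: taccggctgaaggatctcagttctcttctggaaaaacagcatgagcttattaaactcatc
EE234825: agctccaatatataatatgcataacatgga
These probes for MMP3, MMP1 and TRPA1 had log2 differences, day 30 minus day 10, of -11.65, -7.88 and -5.63, and that for EE234825 had 5.54.

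The difference between the days ran largely 1 way. Of 33174 probes tested, 139 (0.419%) passed an adjusted p of 0.05 in limma's test paired by cow, 135 of them lower at day 30 (0.407%) and 4 higher (0.0121%). With 1 probe per gene, that of the highest mean level, 63 of 13106 genes fell (0.481%) and 1 rose (0.00763%). At an unadjusted p under 0.05 the split was far more even, with 2717 probes lower and 1941 higher. The median log2 difference over all genes was 0.02. The 63 genes that fell had log2 differences of -11.65 to -1.02, and each was lower in 4 of 4 cows, as were 12.6% of all genes. Day 30 and day 10 levels did not overlap for 52 of them. Among all genes tested, 4.89% were lower at day 30 without overlap and 3.81% higher without overlap.

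**Figure D1:**
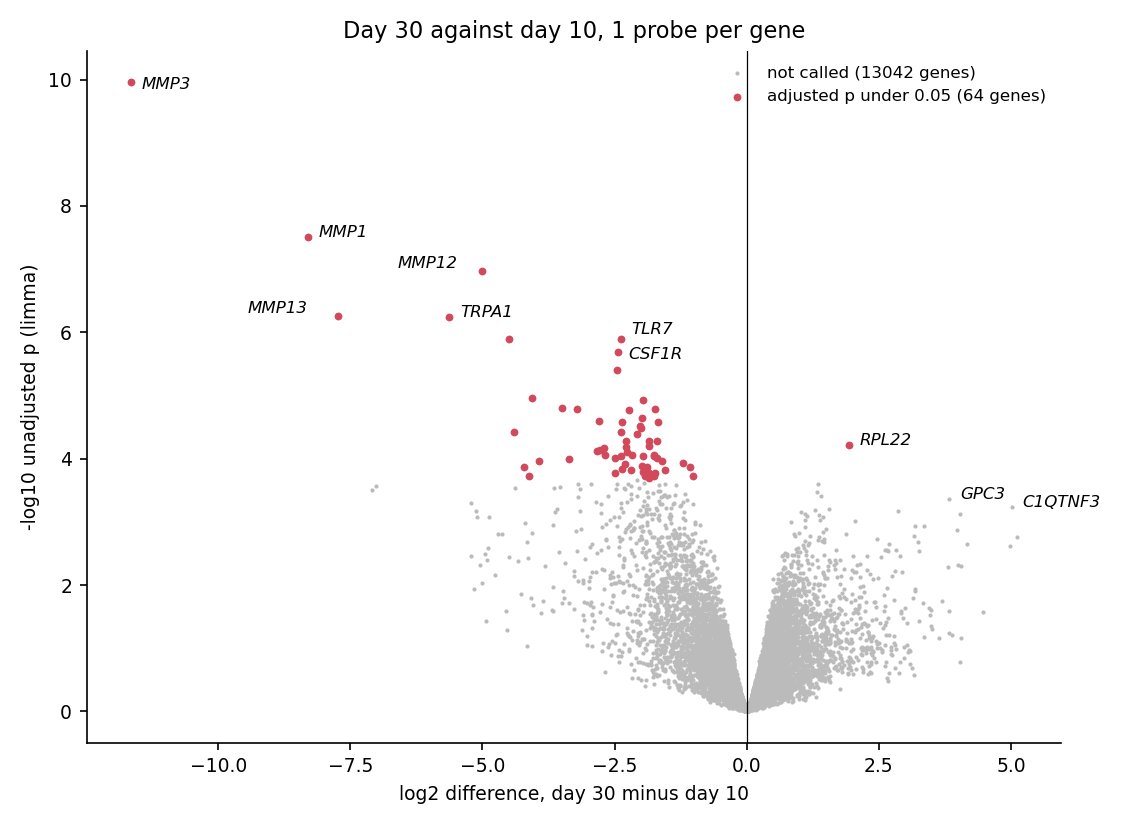
Log2 difference, day 30 minus day 10 (horizontal), against -log10 of the unadjusted p from limma (vertical) for 13106 genes, 1 probe each. The 64 genes past the adjusted threshold are red, and 63 of them lie left of 0, with MMP3 farthest at -11.65, while RPL22 alone lies to the right, at 1.93.

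Among 17 tested metalloproteinases and their TIMP inhibitors 5 genes fell, beside 0.481% of all genes, and no other member passed on its brightest probe. MMP3, stromelysin 1, which cleaves matrix proteins and activates other metalloproteinases, stood at -7.42, -7.93, -8.93 and -7.56 in cows 1 to 4 at day 30, against 3.33, 3.08, 4.19 and 4.17 at day 10. All day 30 values were at background and all day 10 values among the brighter probes, far from any overlap. It fell by 11.65 ± 0.53 on the log2 scale (SE, limma adjusted p = 1.22e-06), and day 30 was at least 1145.5-fold lower, against the lowest signals well above background. MMP1, the interstitial collagenase, had levels of -4.72, -4.94, -5.97 and -4.50 at day 30, against 1.61, 3.02, 4.18 and 4.25 at day 10. It fell by 8.30 ± 0.63 (SE, adjusted p = 0.000205). MMP13, collagenase 3, fell by 7.74 ± 0.77, with only 1 of 4 day 30 arrays above background, so that the size of this difference rests on dim signals. MMP9, a gelatinase that neutrophils also carry, fell by 4.50 ± 0.49. MMP12, the macrophage elastase, was above background on 0 of 4 arrays at day 30 and 4 of 4 at day 10, and was at least 11.6-fold lower. Leaving out any 1 cow left 4 metalloproteinase calls. MMP13 kept its call in 2 of those 4 fits, with its highest adjusted p, 0.101, without cow 1, and so did MMP9, with its highest, 0.0572, without cow 2.

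A fall of similar size was that of a transcript that the array design lists as ENSBTAT00000049635 and describes as the precursor of the uncharacterised protein C17orf67. Its probe lies at chr19:6738159-6738218. Its levels at day 30 were -3.91, -4.20, -1.81 and -2.35 in cows 1 to 4, against 2.36, 0.25, 2.29 and 3.65 at day 10. The groups lie apart, and the fall of 5.20 ± 0.46 (SE, adjusted p = 0.000467) held without any 1 cow, at adjusted p up to 0.0245. Only MMP1, MMP3 and MMP12 did so among the 64 genes with a symbol. This transcript was chosen after its values were seen. Mean levels at days 50 and 100 were -3.05 and -2.97, near the -3.07 of day 30.

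**Figure D2:**
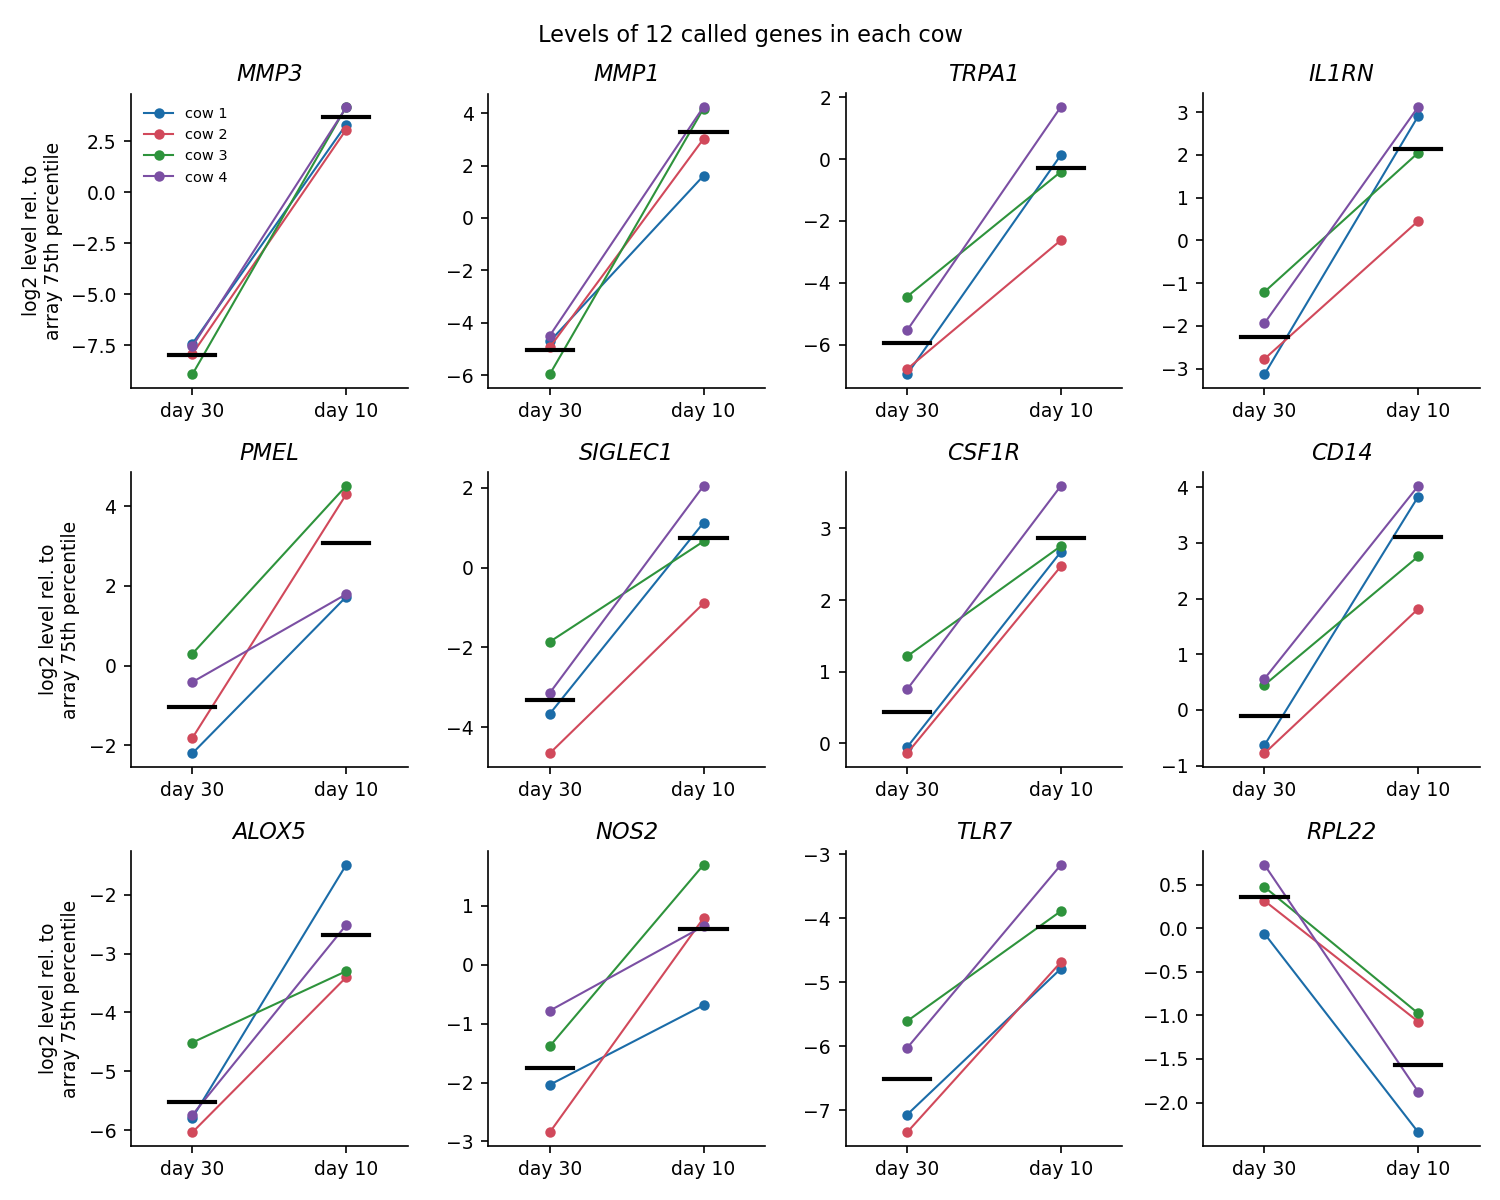
Levels (log2 signal relative to the array's 75th percentile) of 12 called genes at day 30 (left) and day 10 (right), with 1 line per cow and black bars for the means. In all 12 panels the 4 lines run the same way and the 2 groups do not overlap, with RPL22 the only gene higher at day 30.

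Several genes outside inflammation and matrix turnover fell steeply. TRPA1, a cation channel that senses irritants and reactive molecules, stood at -6.96, -6.79, -4.45 and -5.54 in cows 1 to 4 at day 30, against 0.13, -2.62, -0.41 and 1.69 at day 10. No day 30 value reached the lowest day 10 value, and only 2 of the 4 day 30 arrays were above background. It fell by 5.63 ± 0.56 (SE, adjusted p = 0.00137), and the call held in 2 of the 4 fits that left out a cow, with the highest adjusted p, 0.0746, without cow 4. It was the 1 gene called among 20 tested ion channels and channel regulators, beside 0.481% of all genes called lower. The median difference of these 20 was -0.41.

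PMEL encodes the protein that forms the fibrils of pigment granules in melanocytes. Its levels were -2.20, -1.82, 0.30 and -0.41 at day 30 and 1.73, 4.30, 4.51 and 1.79 at day 10, a fall of 4.12 ± 0.76 (SE, adjusted p = 0.0471). The fall was smallest in cow 4 and largest in cow 2, and the call was lost without any 1 of the 8 arrays, for instance at adjusted p = 0.192 without the day 30 array of cow 1. The melanocyte enzymes TYR, TYRP1 and DCT and the melanocyte antigen MLANA were above background on fewer than 4 of 16 arrays and were not tested. MITF, the transcription factor that drives pigment genes, differed by -0.07 (adjusted p = 0.976). PMEL was thus the only call among 6 tested genes of melanocytes and nerve, beside 0.481% of all genes called lower.

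Enzymes and transporters of varied pathways were also among the genes called lower. NOS2, the inducible nitric oxide synthase, had levels of -2.04, -2.84, -1.38 and -0.78 at day 30 and -0.69, 0.79, 1.69 and 0.65 at day 10, and fell by 2.37 ± 0.36 (SE, adjusted p = 0.0222). Its highest day 30 value, in cow 4, lay just under its lowest day 10 value, in cow 1. ALOX5, the lipoxygenase that starts leukotriene synthesis, fell by 2.84 ± 0.47 (SE, adjusted p = 0.0307) and had 3 of 4 day 30 arrays above background. SLC37A2, a sugar-phosphate transporter abundant in macrophages, stood at -5.07, -5.27, -4.05 and -5.28 at day 30, against -2.42, -2.79, -2.42 and -2.21 at day 10. Its day 10 values were tightly grouped, and its fall of 2.46 ± 0.30 (SE, adjusted p = 0.00667) held without any 1 array but in only 1 of the 4 fits that left out a cow (adjusted p up to 0.158, without cow 1).

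SLC66A1, a lysosomal exporter of cationic amino acids, had levels of 0.87, 0.79, 0.79 and 0.64 at day 30 and 1.81, 1.75, 1.80 and 1.79 at day 10. The day 10 values lay close together and above all day 30 values, and the fall was 1.02 ± 0.19 (SE, adjusted p = 0.0469), on 1 of 3 probes. RENBP, which interconverts N-acetylglucosamine and N-acetylmannosamine and binds renin, fell by 2.01 ± 0.30 (SE, adjusted p = 0.0197). DHRS9, a short-chain dehydrogenase that acts on retinol and steroids, fell by 2.22 ± 0.31 (SE, adjusted p = 0.0147), with 2 of 4 day 30 arrays above background. RAB15, a small GTPase of endosomal recycling, fell by 1.70 ± 0.27 on its brightest probe (SE, adjusted p = 0.0271), and all 4 of its probes were called. HR, a nuclear corepressor studied in hair growth, fell by 1.76 ± 0.30 and AGMAT, named for agmatine hydrolysis, by 1.54 ± 0.28, with adjusted p of 0.033 and 0.0425. Both calls were lost without any 1 cow. AGMAT was above background on 3 of 4 arrays at each day, and its call held in 5 of 13 alternatives of processing and fit. TM4SF4, a tetraspanning membrane protein, fell by 4.22 ± 0.75 (SE, adjusted p = 0.0411) and was above background on 1 array at day 30 and 3 arrays at day 10. RASL10B, a small GTPase of the RAS family, was at least 1.75-fold lower, with 0 of 4 day 30 arrays above background.

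Many of the called genes are known from macrophages and other myeloid cells. Fewer cells of a type and less RNA per cell cannot be told apart in these bulk samples. In the macrophage marker list 7 of 15 tested genes fell, beside 0.481% of all genes. All 15 were lower in 4 of 4 cows, beside 12.6% of all genes. Their median difference was -2.35, beside 0.02 over all genes. The list's mean level, relative to its mean over 16 arrays, ran from -1.36 to 0.33 at day 30 and from 0.92 to 2.55 at day 10. Leaving out cows 1, 2, 3 and 4 in turn left 0, 0, 4 and 0 calls in this list, so the count rests on having all 4 cows. The neutrophil list's level lay between -1.35 and -0.53 at day 30 and between 0.27 and 4.23 at day 10. Only 5 of its 10 genes were tested, CSF3R and CXCR2 being among the others, and none was called. All 5 were lower in 4 of 4 cows, with a median difference of -4.70. The part of either cell type in the other falls was not tested.

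Receptors of the cell surface and endosome were among them. CSF1R, the receptor through which macrophages receive their survival signal, stood at -0.06, -0.14, 1.21 and 0.75 at day 30, against 2.67, 2.47, 2.75 and 3.60 at day 10. Every day 30 value lay below every day 10 value, and CSF1R fell by 2.43 ± 0.28 (SE, adjusted p = 0.00375), a call that held without any 1 array but in only 1 of the 4 fits that left out a cow (adjusted p up to 0.158, without cow 1). SIGLEC1, a macrophage lectin that binds sialic acids, fell by 4.06 ± 0.55, CD14, the co-receptor for bacterial lipopolysaccharide, by 3.21 ± 0.45, and MSR1, a scavenger receptor, by 1.75 ± 0.29. TLR7, the endosomal sensor of single-stranded RNA, fell by 2.38 ± 0.26 (SE, adjusted p = 0.0025), and the probe of TC323242, a neighbour on chromosome X, fell by 1.96. TLR7 was above background on only 2 of 4 day 30 arrays and 3 of 4 day 10 arrays, so its fall rests on dim signals. P2RY13, a receptor for ADP, fell by 2.80 ± 0.41, C3AR1, the receptor for the complement fragment C3a, by 1.91 ± 0.34, and CCR1, a chemokine receptor, by 2.19 ± 0.39. HAVCR2, an inhibitory receptor also called TIM-3, fell by 1.07 ± 0.19.

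Genes of activating and of inhibitory receptor signalling were both among those that fell. FCGR1A, the high-affinity immunoglobulin G receptor, fell by 2.68 ± 0.45, TYROBP, an adaptor with an activating motif, by 1.97 ± 0.36, and SYK, the kinase it recruits, by 1.98 ± 0.35. With FYB1, an adaptor of integrin activation whose groups overlapped, these were 4 calls among 18 tested Fc receptor and tyrosine kinase genes. Over all genes 0.481% were called lower. All 18 genes of the list had differences below 0. Leaving out any 1 cow left 0 calls in this list, and leaving out 1 array left 0 to 6. LAIR1, an inhibitory collagen receptor above background on only 1 of 4 day 30 arrays, fell by 1.74 ± 0.24, and VSTM1, an inhibitory receptor of myeloid cells, by 1.97 ± 0.27. Both lie on chromosome 18, where 3 further called probes that the design describes as similar to leukocyte immunoglobulin-like receptors fell by 2.92, 2.80 and 2.26. All these called probes lie within 1.58 megabases, chr18:62072295-63648193 on Btau_3.1, in the region known as the leukocyte receptor complex. Related receptors there share sequence, so signal could be split between copies.

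Inside the cell, SPI1, the transcription factor PU.1 that specifies myeloid cells, had levels of -0.73, -0.64, 0.52 and -0.23 at day 30, against 2.55, 1.01, 1.83 and 2.96 at day 10. It fell by 2.35 ± 0.35 (SE, adjusted p = 0.0187), and the groups did not overlap. BATF3, a factor that some conventional dendritic cells need, fell by 2.00 ± 0.30. NCF4, a cytosolic subunit of the phagocyte oxidase, which makes superoxide, fell by 2.77 ± 0.46 and was the 1 call among 8 oxidase genes. CD68 and LAPTM5, both lysosomal membrane proteins of leukocytes, fell by 2.17 ± 0.37 and 1.69 ± 0.25 and were the calls among 15 tested lysosomal membrane and proton pump genes, a list with 0 or 1 calls when 1 cow was left out. CTSC, the protease that activates granule proteases, fell by 1.88 ± 0.33, and MPEG1, a pore-forming protein of macrophages, by 1.99 ± 0.29 with all 4 probes called. MYO1F, an unconventional myosin of leukocytes, fell by 1.85 ± 0.30 and was the 1 call among 21 genes of leukocyte adhesion and motility. All 21 had differences below 0, with a median of -1.42, as did 7 of the 8 oxidase genes, with a median of -1.15. At an unadjusted limma p under 0.05, 14 of the 21 and 4 of the 8 were lower, beside 8.36% of all genes. Leaving out any 1 cow left 0 calls in either list, and 0.481% of all genes were called lower. CD300H, of the CD300 receptor family, fell by 3.49 ± 0.49, with 1 of 4 day 30 arrays above background. SIGLEC11, another sialic acid lectin, fell by 2.28 ± 0.36, and MS4A7, a membrane protein of macrophages, by 2.37 ± 0.42. RGS1, which dampens G protein signals, fell by 2.49 ± 0.43, SLC46A3, a lysosomal transporter, by 2.49 ± 0.45 and C3H1orf162 by 2.69 ± 0.44. ISG12(B), an interferon-stimulated gene, fell by 2.39 ± 0.40, with 2 of 4 day 30 arrays above background. Day 30 and day 10 levels overlapped for CD68, CTSC, CD300H, RGS1, SLC46A3 and MS4A7.

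Secreted signals also fell. IL1RN, the antagonist of the interleukin-1 receptor, stood at -3.13, -2.77, -1.20 and -1.94 at day 30, against 2.91, 0.46, 2.05 and 3.12 at day 10. It fell by 4.40 ± 0.68 (SE, adjusted p = 0.0222), with no overlap. The agonists IL1B and IL1A had differences of -2.59 and -3.26 that did not pass (adjusted p = 0.183 and 0.184). IL1RN was the 1 call among 14 tested genes of inflammasome and interleukin-1 processing, beside 0.481% of all genes called lower. All 14 had differences below 0, with a median of -1.91, and 8 were lower at an unadjusted limma p under 0.05. The IL1RN call was lost without any 1 cow (adjusted p up to 0.163, without cow 4), which left 0 calls in this list. IL12A, a subunit of interleukin-12, fell by 3.36 ± 0.58 although its groups overlap, with 2 of 4 day 30 arrays above background. CCL8 and CCL3, chemokines that draw monocytes, fell by 3.94 ± 0.68 and 2.28 ± 0.37, and 2 probes of LOC508666, 88.8 kb from CCL3, fell by 1.94 and 1.74, 1 of them described as similar to CCL23.

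**Figure D3:**
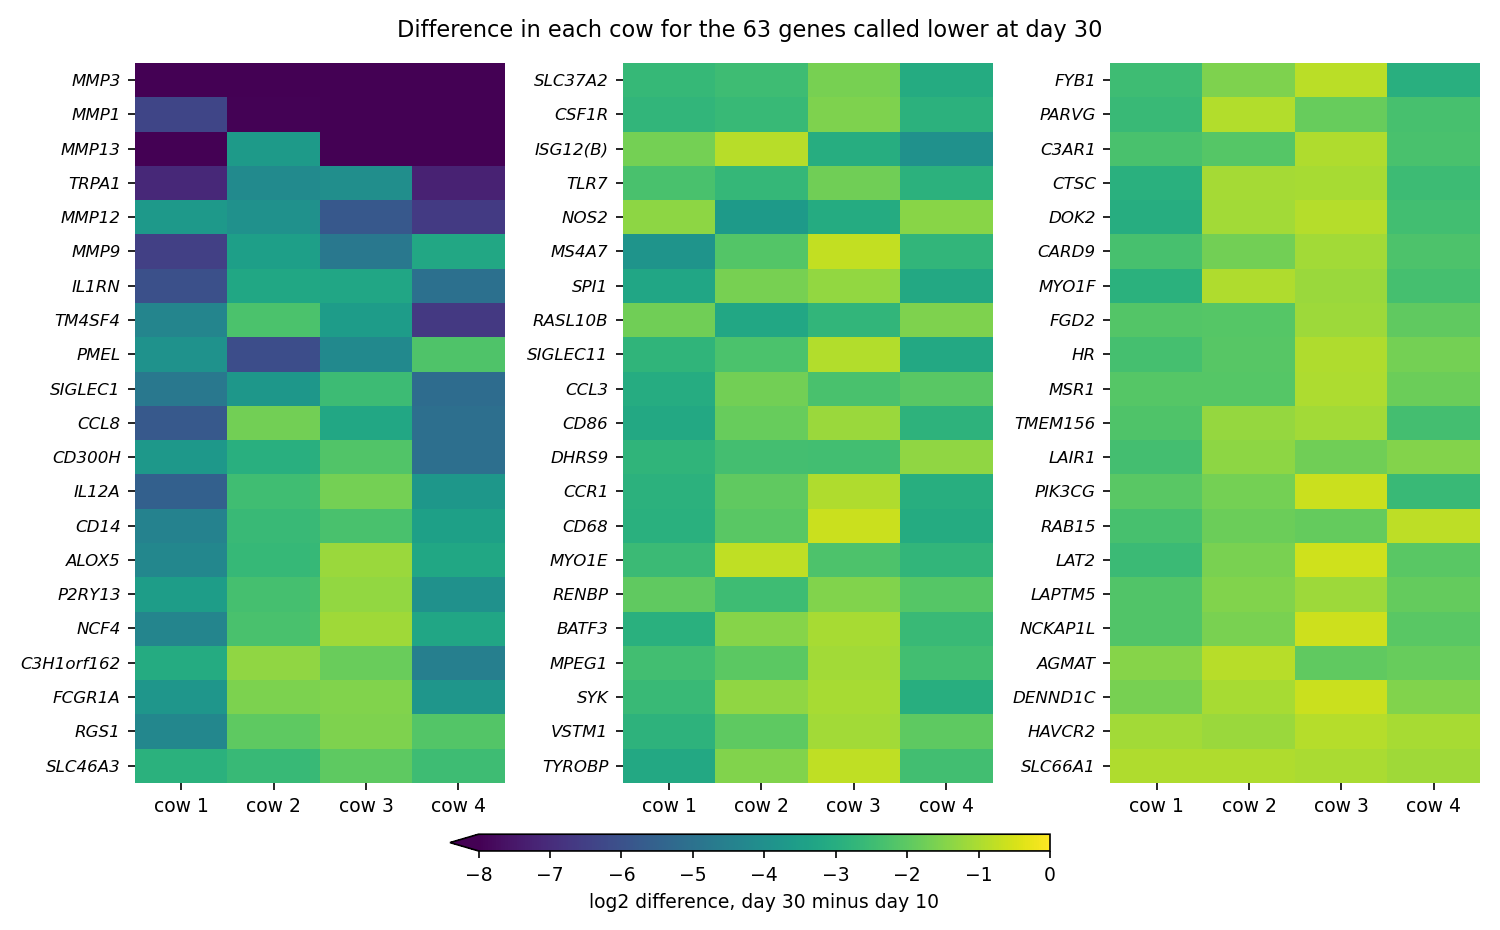
Log2 difference, day 30 minus day 10, in each cow for the 63 genes called lower, in order of size from top left to bottom right (colour stops at -8, and darker is a larger fall). Cow 3 has the smallest fall for 41 of the 63 genes, while MMP3 is dark in all 4 cows.

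The size of the falls differed between cows. Median differences over the 63 genes were -2.87, -2.01, -1.51 and -2.59 in cows 1 to 4. The largest fall was in cow 1 for 31 genes and in cow 4 for 23, and the smallest was in cow 3 for 41. At day 10 cows 1 and 4 had the 2 highest neutrophil list levels, 4.23 and 4.07, and at day 30 cow 3 had the highest macrophage list level, 0.33. The metalloproteinases departed from this order, since MMP1, MMP3 and MMP12 fell least in cow 1, MMP13 in cow 2 and MMP9 in cow 4. PMEL, RAB15, DHRS9 and RASL10B fell least in cow 4, and NOS2 and SLC66A1 in cow 1. These are differences among 4 animals, and none of them was tested.

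Marker levels of smooth muscle and epithelium differed between the 2 days in opposite ways among the cows. The smooth muscle list stood at 1.72, 1.54, -0.31 and 1.07 in cows 1 to 4 at day 30, against -1.32, 1.51, 1.24 and -1.42 at day 10. Epithelial markers averaged -0.59, -0.05, 0.42 and -2.22 at day 30, against 0.89, -2.64, -0.85 and 0.84 at day 10. Muscle RNA was thus higher at day 30 in cows 1 and 4 and lower in cow 3, while epithelial RNA was lower at day 30 in cows 1 and 4 and higher in the other two. Neither list had a call or a gene with non-overlapping groups. With both list levels as covariates, 49 probes were called in place of 139, and 44 of these were among the 139. That fit had 7 residual degrees of freedom in place of 9.

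**Figure D4:**
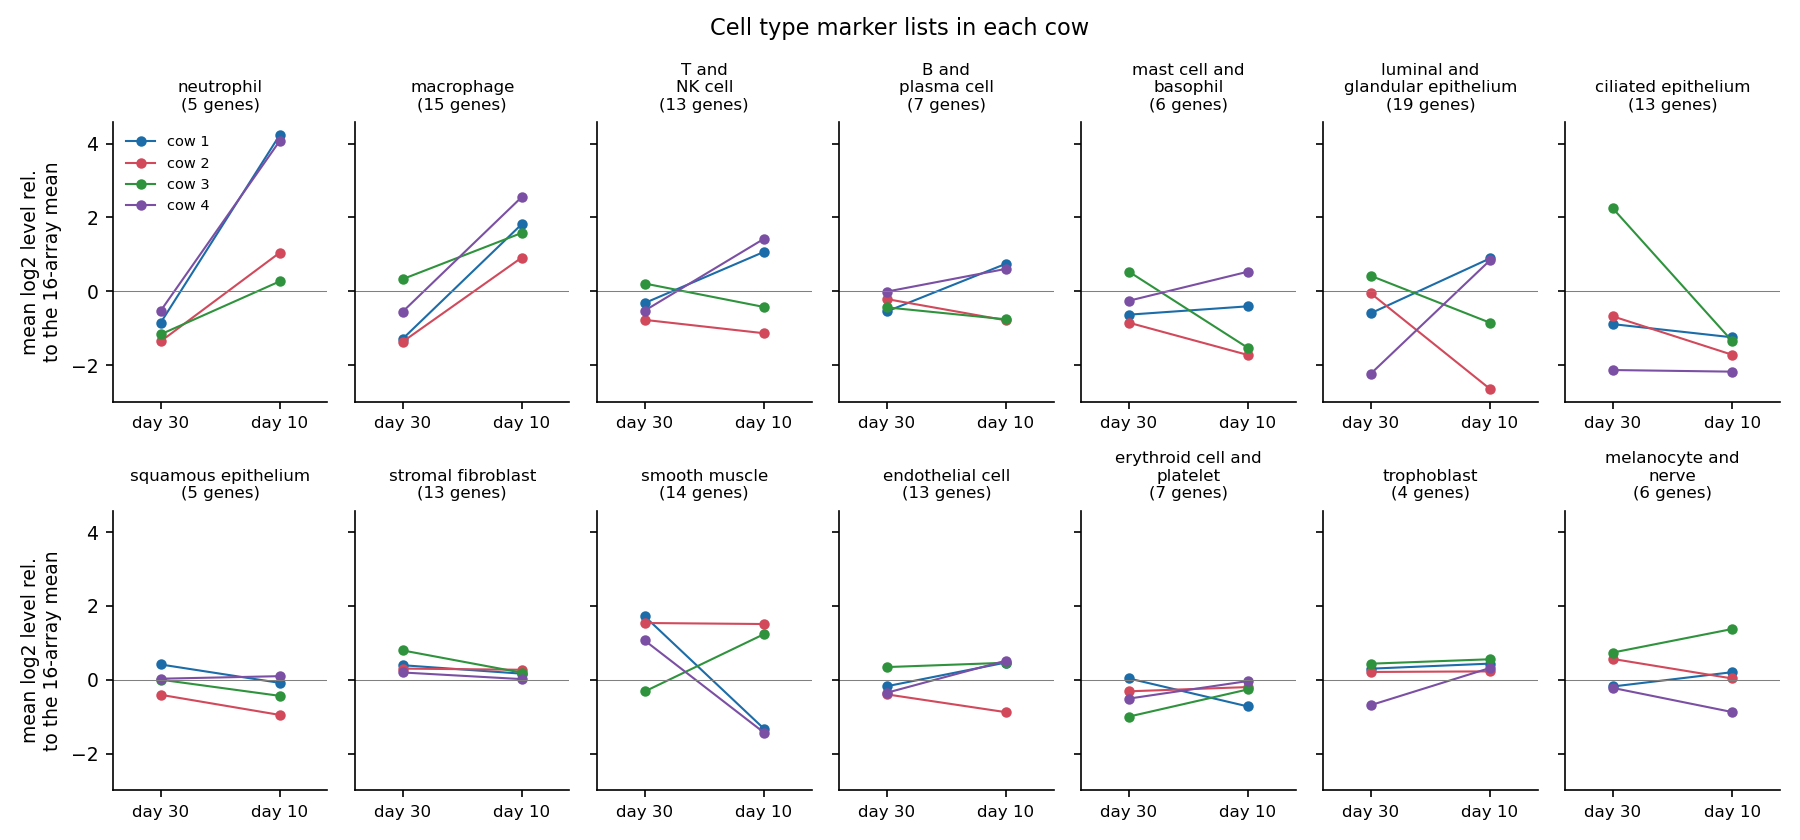
Mean log2 level of 14 cell type marker lists relative to each gene's mean over 16 arrays (vertical), at day 30 (left) and day 10 (right), with 1 line per cow. Macrophage lines all slope up towards day 10, whereas epithelial and smooth muscle lines cross.

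A further 12 genes were called lower only on a probe other than their brightest. PDPN, a membrane mucin of lymphatic endothelium and activated fibroblasts, fell by 2.28 ± 0.33 on that probe (SE, adjusted p = 0.0171), beside -1.67 on the brightest probe. DIO2, the deiodinase that activates thyroid hormone, fell by 4.40 ± 0.82 (SE, adjusted p = 0.0497), and its brightest probe had nearly the same difference, -4.38. SLC40A1, ferroportin, the cellular iron exporter, fell by 2.11 ± 0.36, and PFKFB3, which raises the rate of glycolysis, by 2.04 ± 0.36. The 2 probes of RAI14 disagreed, with -1.80 on the called probe and 0.09 on the brightest, so its call rests on 1 probe. C1QB, a chain of complement C1q, CYBB, the catalytic subunit of the phagocyte oxidase, LRRC25, SLA, DENND3 and SCPEP1 were also among them.

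Rises were few. RPL22, a protein of the large ribosomal subunit, stood at -0.06, 0.31, 0.47 and 0.73 in cows 1 to 4 at day 30, against -2.34, -1.07, -0.98 and -1.88 at day 10. All 4 day 30 values lay above all day 10 values, and the rise was 1.93 ± 0.31 (SE, adjusted p = 0.0284), lost without any 1 cow (adjusted p up to 0.307, without cow 1). The array design names this probe LOC616065, and near-identical copies of ribosomal genes could share its signal. None of the other ribosomal protein genes, of 24 tested, was called, and the list's median difference was 0.04. Mean RPL22 levels at days 50 and 100 were -0.42 and -0.50, between those of day 30, 0.36, and day 10, -1.57.

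The largest rise among all tested probes that were called was that of the unnamed tag EE234825, chosen after its values were seen. It stood at 4.55, 3.09, 4.41 and 1.76 at day 30, against -4.30, 0.03, -1.25 and -2.84 at day 10. The groups did not overlap, and the rise was 5.54 ± 0.78 (SE, adjusted p = 0.015). The call was lost without any 1 cow (adjusted p up to 0.137). Mean levels at days 50 and 100 were 3.75 and 3.41, beside 3.45 at day 30. TC339931, an unnamed transcript with its probe at chr12:18998727-18998786, was higher at day 30 by 2.17 ± 0.37 (SE, adjusted p = 0.0329). That call was also lost without any 1 cow (adjusted p up to 0.307).

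C1QTNF3, a secreted relative of adiponectin, was called higher on 1 probe, by 3.72 ± 0.60 (SE, adjusted p = 0.0283). Its brightest probe had -0.54, 1.11, 1.44 and 0.70 at day 30 and -7.11, -1.81, -2.60 and -5.83 at day 10, a larger difference of 5.01 ± 1.06 that did not pass (adjusted p = 0.0705), with the day 10 values scattered. Other genes were higher in 4 of 4 cows without passing. GPC3, a membrane proteoglycan that restrains growth factor signals, stood at 1.22, 0.72, 1.77 and 0.48 at day 30, against -3.78, -2.83, -0.95 and -3.58 at day 10, a difference of 3.83 ± 0.78 (adjusted p = 0.063). LRRC17, a secreted leucine-rich protein, differed by 2.86 ± 0.62 (adjusted p = 0.0744). PLK4, the kinase of centriole duplication, and PRIM1, the small subunit of DNA primase, differed by 1.35 and 1.29 (adjusted p = 0.0537 and 0.0744). Among stromal matrix genes, DPT, dermatopontin, and OGN, osteoglycin, differed by 3.17 and 2.66 (adjusted p = 0.104 and 0.129) without overlap. For comparison, 11.2% of all genes were higher in 4 of 4 cows. The 13 tested stromal fibroblast markers include DPT and OGN. Of these 13, 8 had differences below 0 and 5 above, with a median of -0.099 and no call.

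The lists of metabolism, hormones and tissue structure are given with limma calls, beside an unadjusted p under 0.05 for 8.36% of all genes on the lower side and 6.04% on the higher. Among 22 tested cholesterol synthesis genes none was called, 21 had differences above 0, 7 were higher at an unadjusted p under 0.05 and the median was 0.44. MSMO1, a methylsterol monooxygenase, was at 3.98, 4.66, 4.02 and 3.47 at day 30 and 2.75, 2.97, 2.55 and 3.11 at day 10, a difference of 1.19 ± 0.44 (adjusted p = 0.265). Of 22 tested cell cycle genes 17 had differences above 0, with a median of 0.38, 3 higher at an unadjusted p under 0.05 and no call. PCNA, the sliding clamp of DNA replication, differed by 0.68 ± 0.21 without overlap (adjusted p = 0.184). The cell cycle list was highest in cow 3 at day 30, at a mean level of 1.72, and lowest of the 4 in cow 4, at -0.35.

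Collagen genes themselves had no call. Among 12 tested fibrillar and basement membrane collagens 8 had differences below 0, with 2 lower and 2 higher at an unadjusted p under 0.05, and the median was -0.19. COL1A1 and COL3A1, chains of the fibrillar collagens, differed by -0.22 and -0.04 (adjusted p = 0.688 and 0.977). In the list of collagen uptake and intracellular matrix degradation 8 of 12 genes were lower at an unadjusted p under 0.05, the same number did not overlap, and the median was -1.06, again with no call. PLAUR, the urokinase receptor, stood at -4.39, -3.30, -2.73 and -4.13 at day 30 and 0.75, -2.05, -0.81 and 1.67 at day 10, and just missed the threshold (adjusted p = 0.0545). MRC1, the mannose and collagen receptor, differed by -2.06 ± 0.45 (adjusted p = 0.0777).

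Energy and hormone genes were mixed. Glycolysis genes had 17 of 18 differences below 0, 4 lower at an unadjusted p under 0.05, and a median of -0.47, and the mitochondrial respiratory chain had a median of 0.01 over 20 genes with none past an unadjusted p of 0.05. Neither list had a call on its brightest probes. SLC11A1, a transporter that pumps metal ions out of the phagosome, differed by -3.64 ± 0.71 (adjusted p = 0.0557). Steroid receptors and coregulators had a median of 0.08 and no call, and ESR1 and PGR, the estrogen and progesterone receptors, differed by -0.05 and 0.18 (adjusted p = 0.973 and 0.822). STAR, which brings cholesterol into mitochondria for steroid synthesis, stood at -0.12, -1.44, -1.12 and 3.30 at day 30 and 1.75, 5.69, 6.07 and 1.74 at day 10. Its difference of -3.66 ± 1.20 was reversed in cow 4 and did not pass (adjusted p = 0.209). IGFBP1, a binding protein for insulin-like growth factors, was at -4.11, -4.84 and -4.59 in cows 1 to 3 but 0.79 in cow 4 at day 30, against 1.17 to 1.61 at day 10 (adjusted p = 0.289).

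**Figure D5:**
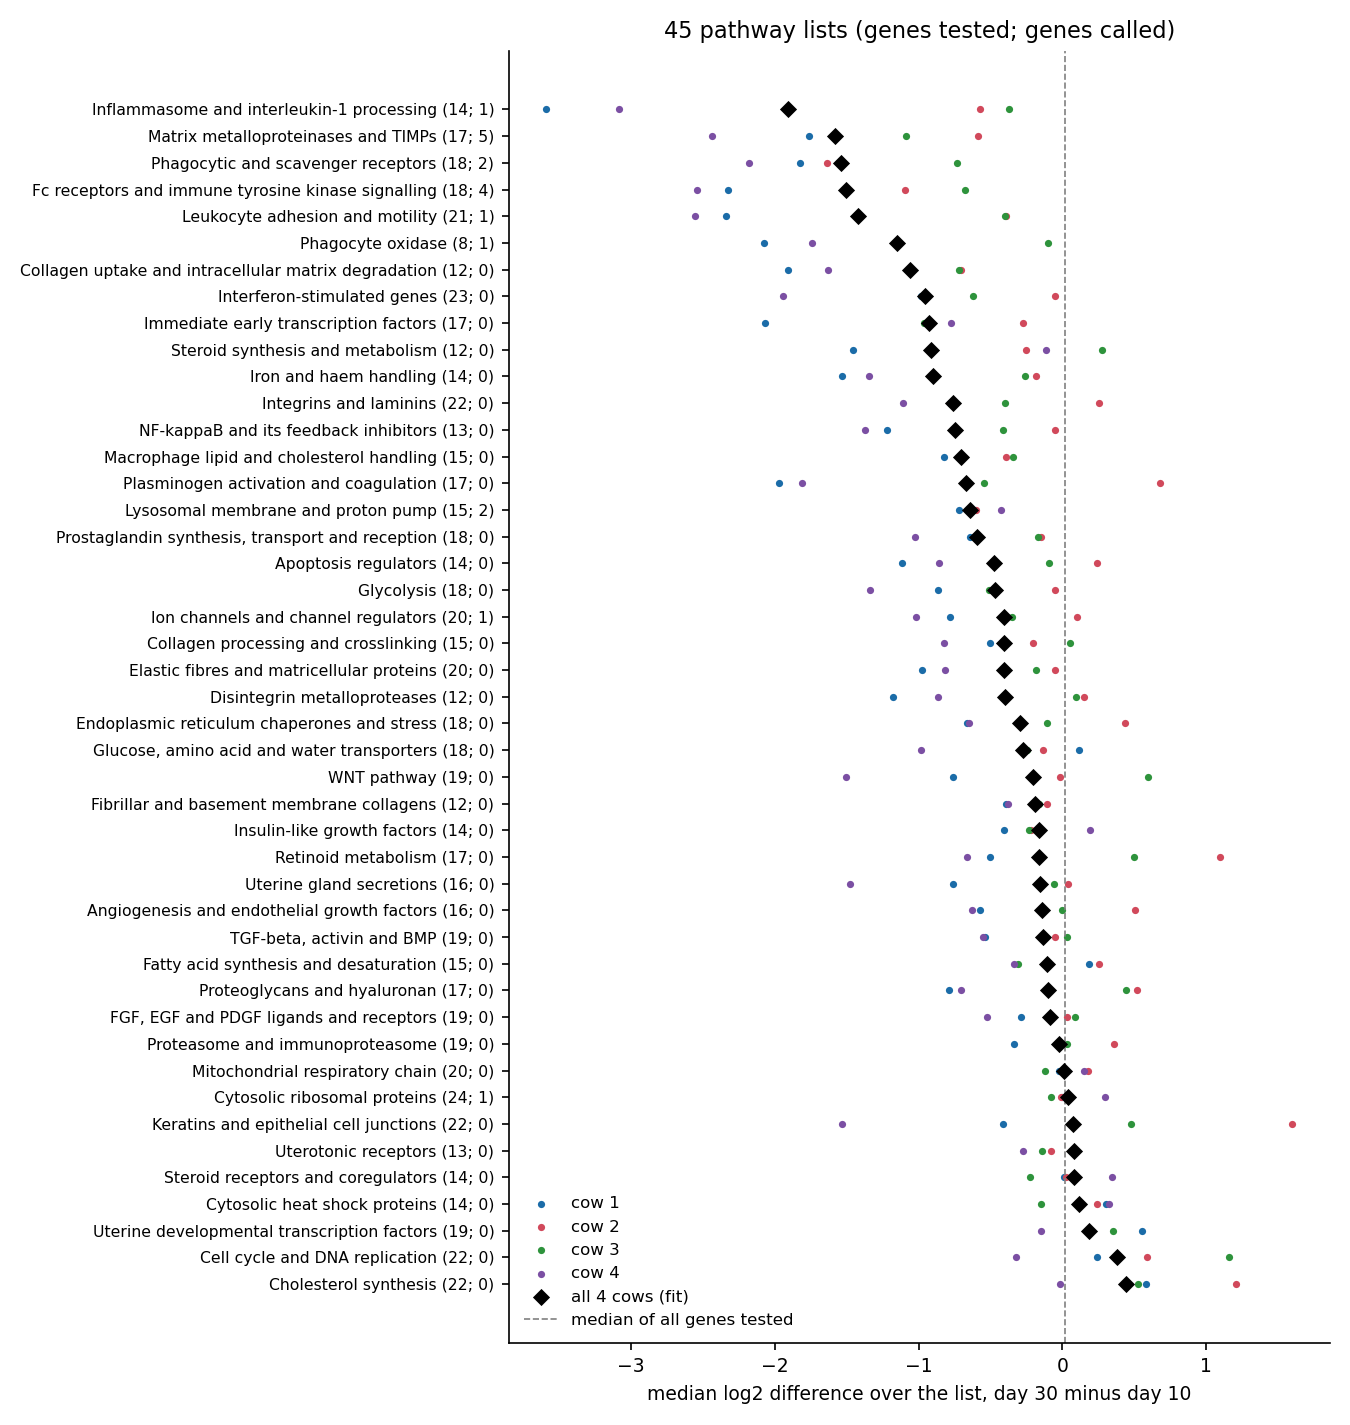
Median log2 difference, day 30 minus day 10, of 45 pathway lists (rows, with the number of genes tested and called). Diamonds are medians of the fitted differences and dots the medians in each cow. The inflammasome list lies lowest at -1.91 and cholesterol synthesis highest at 0.44, beside a median of 0.02 over all genes (dashed line).

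Of the 59 lists, 48 had no call, while 11 had between 1 and 7. The genes in the lists account for 22 of the 64 called genes. Later levels of 4 of the named genes are given for comparison. Mean MMP3 was -7.96 at day 30, -8.18 at day 50 and -7.69 at day 100, and mean NOS2 was -1.76, -2.18 and -2.75. PMEL stood at -1.03, -2.59 and -2.28 on average, and CCL8 at -2.35, -0.42 and -1.43. These levels were not tested against each other.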

How the data were processed

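RNA from 16 biopsies was measured on 1-colour Agilent arrays, 1 array per biopsy. Per the file headers, the authors used Agilent Feature Extraction 11.5.1.1, which subtracts a local background and detrends each array. The submitters' processing notes name version 10.5.1.1. The deposited processed-signal intensity was taken as log2 and scaled by subtracting each array's 75th percentile, over 43803 spots that were not controls. The deposited flags of 0 or 1 per spot gave which signals were well above background, and no spot was saturated. The authors also deposited a table of log2 values, which correlated with the scaled signals at r of 0.9998 or more and served as an alternative. Its per-array offsets and probe centring are not stated, and its column medians ran from -0.155 to 0.215.

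Spots of 1 probe were averaged after outlier spots were left out, giving 43653 probes. The 33174 well above background on at least 4 of 16 arrays were tested. limma 3.58.1 in R 4.3.3 was fitted (lmFit, eBayes) with day and cow as terms on all 16 arrays, with 9 residual degrees of freedom, and the day 30 minus day 10 contrast was adjusted by Benjamini-Hochberg at 0.05, two-sided. Every adjusted p in the text comes from this fit or a named alternative of it. An exact sign-flip test on 4 pairs alone could not go below p = 0.125. The pairing rests on the labels, which number the cows and state repeated sampling of the same animals, and same-cow deviations from the day means correlated at 0.006, 0.108, -0.055 and -0.037. Replicates are single biopsies of 4 animals, and precision is limited by how few arrays there are.

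A gene is represented by its tested probe with the highest mean over 16 arrays. Symbols came from the array design, updated through RefSeq accessions for 22202 probes, gene IDs for 1477 and synonyms for 372, with 10443 probes left without a symbol. An "at least" fold sets the brighter day's mean against, per array, the higher of the dim probe's signal and the lowest signal well above background. The genes named were the 30 called with the largest difference, called members of 59 lists and called rises, with some of the 2 members of each list of smallest adjusted p and of the 10 uncalled rises of smallest p. Not all other called genes are named. A few others were named after their values were seen, among them the genes called on another probe and those without a symbol. The comparison and the lists were chosen with earlier results of these data known. Alternatives covered background correction, scaling, filters on dim probes, the deposited log2 table, the cow term, the arrays fitted, array weights, tissue covariates and leaving out each cow or array. The fit was tested on simulated data, where false calls made up more of the calls than the threshold allows, so calls near it are less certain than their adjusted p states. The result of 1 gene is not reported here.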

Additional observations from a re-analysis of the deposited data

Results flagged for a closer look

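Among 296 groups of 4 arrays (148 named genes at each day), 12 had 1 array far from the other 3 by Dixon's test, and chance flags about 1 in 20 groups. Cow 3 stood apart at day 30 for APOE at a level of 6.001 (others 3.94 to 4.22), MX2 at -4.73 (others -6.52 to -6.38), NKG7 at 1.67 (others -0.53 to -0.23) and SELPLG at -2.35 (others -3.75 to -3.69), each time as the highest. Cow 4 at day 30 was the lowest for CRABP1 at -5.04 (others 2.61 to 4.04) and the highest for IGFBP1 at 0.79 (others -4.84 to -4.11) and PARVG at -5.92 (others -6.73 to -6.65). At day 10, cow 1 was the highest for MMP9 at 2.54 (others 0.06 to 0.37) and MYO1E at -4.46 (others -5.27 to -5.19). Also at day 10, KRT5 was lowest in cow 2 at -7.41 (others -6.83 to -6.72), MCM4 highest in cow 3 at 1.62 (others 0.99 to 1.06) and MRC1 highest in cow 4 at 1.28 (others -0.06 to 0.08).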

How the results depend on the processing

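The count of 139 called probes moved with several choices. It was 72 with normexp background correction and 83 with median scaling, both of which put the median difference of all probes at 0.11. It was 78 without the day 100 arrays, 4 on the 8 arrays alone, which have 3 residual degrees of freedom, 759 with array weights and 49 with smooth muscle and epithelial list levels as covariates. Without the cow as a block, that is unpaired, it was 57. Leaving out 1 cow or 1 array gave 14 to 200, with 14, 20, 46 and 16 without cows 1 to 4. The other 6 alternatives gave 95 to 157. Of the 64 called genes none changed direction in any of 25 settings in which its probe was tested. Without any 1 cow 3 kept their call (MMP1, MMP3 and MMP12), and without any 1 array 9 did. MMP3 alone kept it in every other setting that tested its probe, 12 of 13, since the filter at 8 of 16 arrays removed it. That filter also removed the probes of MMP12 and MMP13, above background on 0 and 1 of 4 day 30 arrays and on 4 of 4 at day 10. Among named genes that were not called, the differences of HBEGF, SLC4A1 and VWF turned sign under normexp, to 0.017, 0.012 and 0.034. The causes of these movements were not tested. Signals not well above background at day 30 limit the folds of MMP3, MMP12 and RASL10B to lower bounds, and those of MMP13, TM4SF4, LAIR1 and CD300H rest on 1 of 4 day 30 arrays above background.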
